A study of Mus musculus with 2 samples.

Results

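Dendritic cells are the main antigen-presenting cells of the immune system, and 10 genes by which they are commonly recognised were followed here in 2 RNA sequencing libraries of a mouse tumor. The genes were taken by symbol and were not chosen by their values, although earlier results of these data were known at the time. All 10 were found among the 22886 genes of the files, each on a single line, so that no lines had to be summed. Both libraries are labelled as sorted aerobic cells from a subcutaneous LLC tumor, the Lewis lung carcinoma, a mouse lung tumor line grown under the skin. The mice were of the strain C57BL/6 and the genotype wild type, and they had been injected either with vehicle (vehicle library) or with clodronate (clodronate library). Clodronate is a drug that kills cells which engulf it and is used to remove macrophages. The labels give no dose, time, age or number of mice, and do not say what marked the sorted cells as aerobic. A growth protocol in the labels names the blood progenitor line EML, which conflicts with the tissue given. There was 1 library per condition, so a difference between the libraries has no replicate check, is given without a p-value, and cannot be separated from differences of the animals, the sorting or the library.

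Conventional dendritic cells (cDC) fall into cDC1, which take up dying cells and present their antigens to CD8 T cells, and cDC2, which mainly prime CD4 T cells. Plasmacytoid dendritic cells (pDC) are the main source of type I interferon. The receptor Flt3 and the transcription factor Zbtb46 mark the conventional lineage as a whole. Batf3, Clec9a, Xcr1 and Itgae belong to cDC1, Siglech to pDC, and Cd209a to cDC2 and to dendritic cells made from monocytes. Dpp4 and Cd24a are surface proteins used to separate dendritic cell subsets, and both are also found on other cells.

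The values are RPKM, read counts per kilobase of transcript and per size of library. In the low values whole sequenced fragments could still be seen. Among loci with up to 5 fragments, 67.4% of 518 loci in the vehicle library and 67.0% of 986 in the clodronate library lay within 0.05 of a whole number of fragments, when transcripts were shortened by 204 bases and the libraries were taken to hold 13782767 and 11247615 fragments, a ratio of 1.23. The sizes were fitted on loci with 1 fragment, 99 with vehicle and 153 with clodronate, which are among the loci checked. The fit therefore set part of these shares. The fitted sizes gave the number of fragments behind each value. From it came an exact (Clopper-Pearson) 95% interval for the ratio of both libraries, which covers counting error only. A value of 0 is given as listed at 0 and not as absence. Of the 10982 genes averaging 1 RPKM or more, 137 were listed at 0 with vehicle and 71 in the clodronate library. Among the 137 was Ndufaf1, an assembly factor of respiratory complex I, chosen after its values were seen, with 0 RPKM with vehicle and 12.8 RPKM with clodronate.

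Most of the dendritic cell marker genes had low values in both libraries. Their median was 0.485 RPKM with vehicle and 0.368 RPKM with clodronate. The medians of all genes averaging 1 RPKM or more were 11.1 and 11.3 RPKM, a set that leaves out most of the 10. Among all 22886 genes the middle members lay near the middle. With vehicle 51.0% of all genes had a higher value than Dpp4 or Itgae. In the clodronate library 51.7% were higher than Clec9a and 53.0% higher than Xcr1. Of the 10 genes, 6 (Flt3, Clec9a, Xcr1, Itgae, Siglech and Dpp4) stayed below 1 RPKM in both libraries, and 3 (Flt3, Batf3 and Siglech) were listed at 0 in 1 of them. The 10 genes summed to 24.7 RPKM with vehicle and 30.04 RPKM with clodronate. Cd24a made up most of that, and without it the sums were 4.38 and 17.0 RPKM. By contrast, 12 macrophage markers summed to 26305 and 24644 RPKM, and none of them lay under 10 RPKM in either library. The name of the group therefore describes the genes and not the cells sorted, whose RNA was rich in macrophage transcripts. In bulk RNA, fewer cells of a type and less RNA per cell cannot be told apart.

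**Figure D1:**
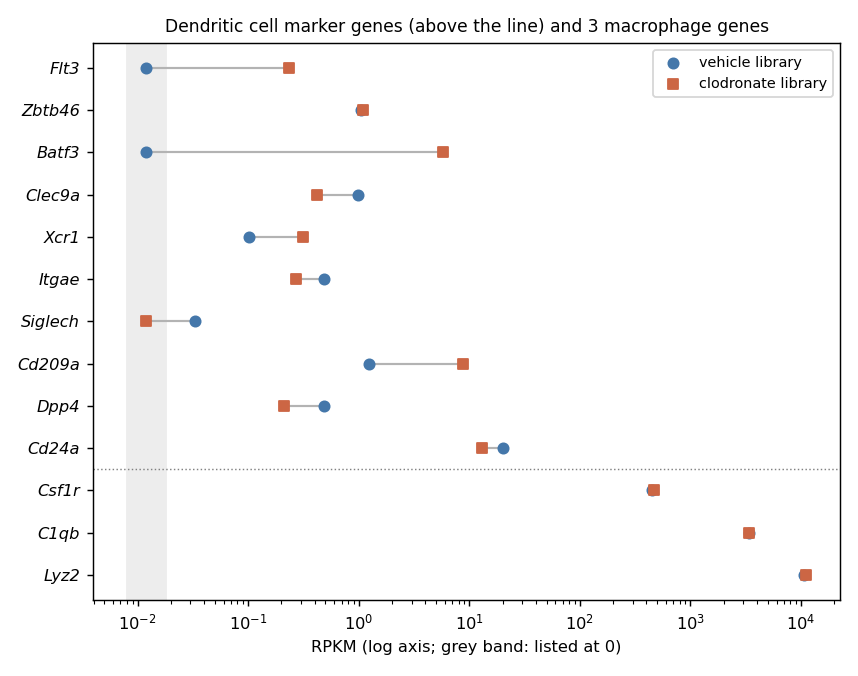
RPKM of the 10 dendritic cell marker genes and, below the dotted line, of 3 macrophage genes for scale, on a log axis. Circles stand for the vehicle library, squares for the clodronate library and the grey band for genes listed at 0. Most marker genes lie at or below about 1 RPKM, Cd24a is the highest of them in both libraries, and Csf1r, C1qb and Lyz2 lie at 446 RPKM or above.

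Of the 10 genes, 5 were higher in the clodronate library (Flt3, Zbtb46, Batf3, Xcr1 and Cd209a) and 5 were lower. A mean of at least 1 RPKM was reached by 4 genes, namely Zbtb46, Batf3, Cd209a and Cd24a, and Batf3 reached it through the clodronate library alone. Of these, 2 were at least 3-fold higher in the clodronate library on the scale of RPKM + 1, Batf3 and Cd209a, and 0 were at least 3-fold lower. Among all 10982 genes with such a mean, 2.86% were past 3-fold upward and 2.32% past 3-fold downward. At the level of Batf3 and Cd209a, a mean of 1 to 10 RPKM, these shares were 4.56% and 3.81% of 5069 genes. The median log2 ratio of the 10 genes without the filter was -0.01, and that of all 22886 genes was 0. With the filter it was 1.07 for the 4 genes kept and 0.02 for all genes averaging 1 RPKM or more.

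**Figure D2:**
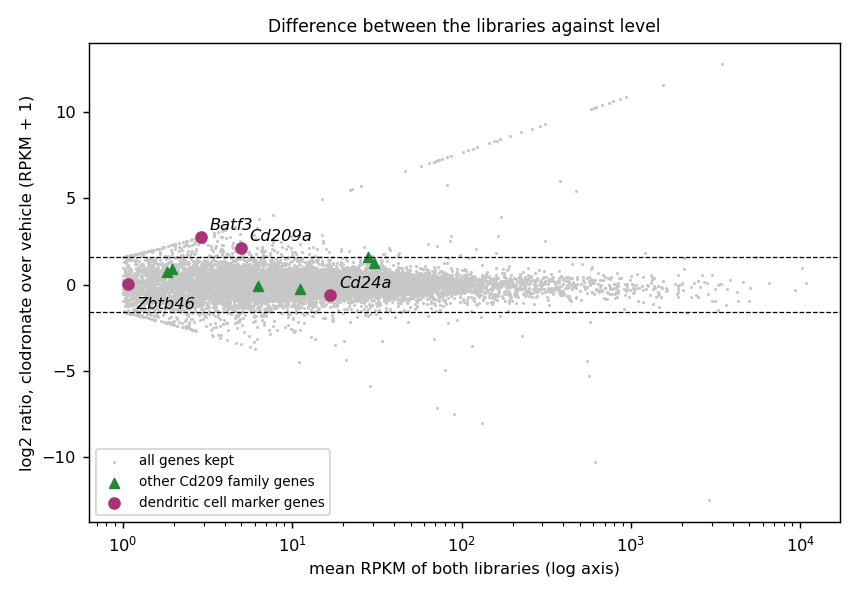
Clodronate over vehicle as a log2 ratio of RPKM + 1 against the mean RPKM of both libraries (log axis) for the 10982 genes averaging 1 RPKM or more. The 4 dendritic cell marker genes among them are named, the 6 other genes of the Cd209 family are triangles, and dashed lines mark 3-fold. Batf3 and Cd209a lie above the upper line, Zbtb46 lies near 0 and Cd24a below it.

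Of the 2 genes that mark conventional dendritic cells as a whole, Flt3, the receptor for the growth factor that maintains dendritic cells and their progenitors, was listed at 0 with vehicle and had 0.232 RPKM, or 9 fragments, in the clodronate library. It lies on chromosome 5 from 148142316 to 148212065 of mm9, the genome build the files use. Zbtb46, a zinc finger repressor on chromosome 2 from 181125590 to 181194131, had 1.05 RPKM with vehicle and 1.09 RPKM with clodronate. Its ratio of 1.04 had a counting interval from 0.603 to 1.86, so that no difference was detectable at this depth. Thus neither gene of the common lineage reached more than 1.09 RPKM in either library.

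Among the cDC1 genes, Batf3 and Xcr1 had higher values in the clodronate library, and Clec9a and Itgae had lower ones. Batf3, a transcription factor that cDC1 need for their development, was listed at 0 with vehicle and had 5.77 RPKM, or 39 fragments, in the clodronate library, where 33.0% of all genes had a higher value. It lies on chromosome 1 from 192922292 to 192932822. Since 51 genes listed at 0 with vehicle had at least the clodronate value of Batf3, Ndufaf1 being one of them, no fold is given for it. Xcr1, the chemokine receptor that guides cDC1 to Xcl1, had 0.102 RPKM (6 fragments) with vehicle and 0.314 RPKM (15 fragments) with clodronate, which was 3.06-fold higher with an interval from 1.12 to 9.64.

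The other cDC1 genes had lower values in the clodronate library, but neither difference was settled by the fragments. Clec9a, which binds actin exposed on dead cells, had 0.979 RPKM with vehicle and 0.421 RPKM with clodronate. It was 2.32-fold higher in the vehicle library, but its 4 transcripts differ in length from 446 to 3293 bases, and the values stand for 9 and 3 fragments at the median length and for 42 and 15 at the longest. The interval ran from 0.611 to 14.1 in the first case and from 1.24 to 4.44 in the second, so the fragments could not settle this gene. Itgae (CD103), the integrin chain that holds cells to E-cadherin on epithelium, had 0.482 RPKM (24 fragments) and 0.269 RPKM (11 fragments). Its ratio of 1.79 in favour of the vehicle library had an interval from 0.840 to 4.03 and was not detectable as a difference at this depth. A length was at hand for only 1 of its 2 transcripts, and its fragments and interval rest on that length. Itgae spans chromosome 11 from 72904096 to 72960951 and overlaps Gsg2, a mitotic kinase named here for that overlap, with 1.002 RPKM with vehicle and 0.648 RPKM with clodronate. Whether the counting used the strand is not given in the sources used here, so that reads of these 2 genes may not be told apart.

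Siglech, a sialic acid-binding receptor of pDC on chromosome 7 from 63023547 to 63034203, had the lowest mean of both libraries among the 10 genes. It had 0.0331 RPKM with vehicle, which stands for 1 fragment, and was listed at 0 with clodronate. A single fragment gives no difference between the libraries.

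Cd209a, a mouse relative of the human lectin DC-SIGN that binds sugars on pathogens, showed the largest ratio among the 7 genes listed above 0 in both libraries. It had 1.25 RPKM (22 fragments) in the vehicle library and 8.68 RPKM (125 fragments) in the clodronate library. This was 6.96-fold higher in the clodronate library, with an interval from 4.40 to 11.5. The gene moved from a place where 46.0% of all genes had a higher value to one where 27.6% did. It lies on chromosome 8 from 3743394 to 3748984. No window of 50 bases of its GENCODE transcripts occurs unchanged in a transcript of another gene. Windows that differ in some bases were not searched, and whether reads of its relatives were counted for it was not tested.

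Dpp4 (CD26), a peptidase of the cell surface that also binds adenosine deaminase, had 0.487 RPKM (34 fragments) with vehicle and 0.211 RPKM (12 fragments) with clodronate. It was 2.31-fold higher in the vehicle library, with an interval from 1.17 to 4.90. Cd24a, a small glycoprotein anchored in the membrane by a lipid, was the most abundant of the 10 genes, with 20.3 RPKM (452 fragments) with vehicle and 13.1 RPKM (237 fragments) with clodronate. It was 1.56-fold higher in the vehicle library, with an interval from 1.327 to 1.829. It lies on chromosome 10 from 43298974 to 43304071, and its transcripts share 2.75% of their windows of 50 bases with the pseudogene Gm6212. Such shared windows were also found for Clec9a (4.02%, with Clec1b), Xcr1 (1.43%, with 179 other genes), Siglech (0.333%) and Flt3 (0.0163%), and for none of Zbtb46, Batf3, Cd209a, Itgae and Dpp4.

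**Figure D3:**
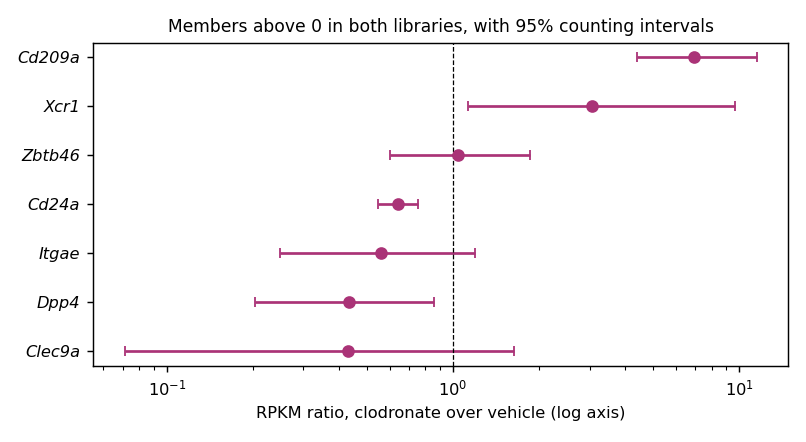
Ratio of RPKM, clodronate over vehicle, on a log axis for the 7 dendritic cell marker genes listed above 0 in both libraries. Points are the ratios, bars are exact 95% counting intervals from the fitted fragments at the median transcript length, and the dashed line marks equal values. For Itgae the length of only 1 of its 2 transcripts was used. The bars of Cd209a and Xcr1 lie above 1, those of Cd24a and Dpp4 below it, and those of Zbtb46, Itgae and Clec9a cross it.

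Markers of other cells that carry these proteins were also examined. T and NK cells can carry Itgae and Dpp4. Their 10 marker genes summed to 14.0 RPKM with vehicle and 10.8 RPKM with clodronate, with 4 lower and 3 higher in the clodronate library. Most of the sum came from Cd4 (10.3 and 7.72 RPKM), while Cd3e, Cd3g and Ncr1 were listed at 0 in both. Thy1 had 2.32 and 1.04 RPKM, 2.22-fold higher in the vehicle library (1.27 to 4.05), and Cd3d had 0.837 and 0.0789 RPKM. Cd8b1 had 0.598 RPKM with vehicle and was listed at 0 with clodronate. Nkg7 and Klrb1c were listed at 0 with vehicle and had 1.02 and 0.918 RPKM with clodronate. The 8 epithelial genes summed to 16.9 and 11.0 RPKM, with Epcam, Krt19 and Cldn4 listed at 0 in both. Several of them were lower with clodronate, as Cd24a was. Krt7 had 2.204 RPKM and Cldn7 1.94 RPKM with vehicle, and both were listed at 0 with clodronate. Krt8 had 3.67 and 1.33 RPKM, 2.75-fold higher in the vehicle library (1.79 to 4.51), whereas Krt18 (2.97 and 3.19 RPKM) and Cdh1 (6.14 and 6.44 RPKM) had intervals that included equal values. The 6 B cell genes summed to 3.15 and 1.93 RPKM, with Pax5 listed at 0 in both. Of the neutrophil list 6 of 7 genes were found, with 43.1 and 45.1 RPKM in all, more than the 10 dendritic cell marker genes together. Csf3r (26.4 and 19.3 RPKM), S100a8 (12.7 and 23.1 RPKM) and Cxcr2 (4.06 and 2.69 RPKM) made up that sum, and S100a9, Retnlg and Camp were listed at 0 in both. Of the erythroid list 3 of 5 genes were found, with 0.218 and 1.54 RPKM in all and Alas2 listed at 0 in both. Epithelial, B, neutrophil and erythroid cells can carry Cd24a. The part of these cells in the values of Itgae, Dpp4 and Cd24a was not tested.

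The sequences before the start sites of Batf3 and Cd209a are shown because these were the pair past 3-fold. The 250 bases before the start come from RefSeq on the build GRCm38.p6, whose coordinates can differ from those of mm9 above. They lie on the plus strand at chr1:191098164-191098413 for Batf3 and on the minus strand at chr8:3748985-3749234 for Cd209a. The motifs given here were AP-1 (TGANTCA), ETS (GAGGAAGT), the TATA box (TATAAA) and the GC box (GGGCGG). They were searched on both strands, and capitals mark the matches. Some other motifs were also searched and are not given.
Batf3: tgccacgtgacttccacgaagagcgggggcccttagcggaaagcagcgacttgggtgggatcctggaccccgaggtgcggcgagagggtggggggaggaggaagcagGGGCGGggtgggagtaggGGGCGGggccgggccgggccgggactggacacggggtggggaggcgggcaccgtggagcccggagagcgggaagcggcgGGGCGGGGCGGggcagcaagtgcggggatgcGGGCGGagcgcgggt
Cd209a: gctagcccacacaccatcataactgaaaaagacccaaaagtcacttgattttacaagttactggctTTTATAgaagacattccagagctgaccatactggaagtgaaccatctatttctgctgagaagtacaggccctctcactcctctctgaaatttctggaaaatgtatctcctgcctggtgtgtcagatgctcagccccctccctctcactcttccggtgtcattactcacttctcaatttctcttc

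The region of Batf3 was rich in G and C (76.0%) with 27 CG pairs and held 5 GC boxes, of which a pair overlaps by 1 base, whereas that of Cd209a had 44.8% G and C, 1 CG pair and 1 match to the TATA box, on the opposite strand 184 to 179 bases before the start. A GC box was found in 32.7% and the TATA box in 12.4% of the 32851 regions of this length. AP-1 and ETS were found in neither gene, and in 6.75% and 2.44% of all regions. Of the 10 genes 8 had such a sequence. These matches are letters only and were not tested as sites.

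The rest of the Cd209 family and other lectins listed in the cDC2 programme were examined beside Cd209a. Which cells held their transcripts was not tested. Of the 7 genes of the family, all of which averaged 1 RPKM or more, 5 were higher and 2 lower in the clodronate library, and the median log2 ratio was 0.88. Cd209a and Cd209f were past 3-fold. Cd209f had 13.5 and 42.4 RPKM, 3.15-fold higher with an interval from 2.65 to 3.76. Cd209d had 17.4 and 43.4 RPKM, 2.497-fold higher (2.08 to 3.02), and both were more abundant than Cd209a in either library. Cd209b and Cd209e, at 1.08 and 2.84 RPKM and at 1.11 and 2.55 RPKM, were 2.63-fold (1.48 to 4.63) and 2.30-fold (1.40 to 4.02) higher. Cd209c (6.52 and 6.07 RPKM) and Cd209g (12.3 and 9.88 RPKM) were the exceptions, and their intervals included equal values.

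**Figure D4:**
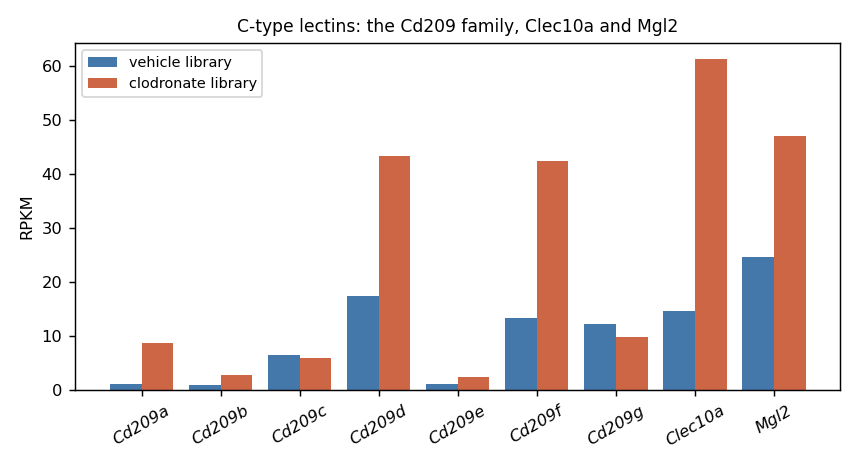
RPKM of the 7 genes of the Cd209 family and of the lectins Clec10a and Mgl2 in the vehicle and clodronate libraries, 1 bar per library and no error bars. The clodronate bar is the higher of the pair for Cd209a, Cd209b, Cd209d, Cd209e, Cd209f, Clec10a and Mgl2 and the lower for Cd209c and Cd209g.

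Among the 11 other genes of the cDC2 programme, 8 averaged 1 RPKM or more, all 8 were higher in the clodronate library, and their median log2 ratio was 0.41. The galactose-binding lectin Clec10a had 14.7 and 61.2 RPKM, 4.17-fold higher (3.63 to 4.82), and was the only gene of the programme past 3-fold. Its neighbour Mgl2 had 24.7 and 47.1 RPKM, 1.91-fold higher (1.70 to 2.15). Irf4, a transcription factor of cDC2, had 4.62 and 8.06 RPKM, 1.75-fold higher (1.498 to 2.035). Genes of this list that tumor macrophages also express were abundant, such as Itgam (385 and 510 RPKM) and Sirpa (264 and 321 RPKM). Clec4a4, a lectin of cDC2, was listed at 0 with clodronate and had 0.408 RPKM with vehicle, and Esam had 0.0538 RPKM with clodronate and was listed at 0 with vehicle. The macrophage list, which holds the related lectin gene Mrc1 at 174 and 289 RPKM, had a median log2 ratio of 0.07 with 8 of 12 genes higher and 4 lower.

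The cDC1 programme beside Batf3, Clec9a, Xcr1 and Itgae held 12 genes, of which 8 averaged 1 RPKM or more. None of the 8 was past 3-fold in either direction, and their median log2 ratio was 0.09. Irf8, the transcription factor that works with Batf3, had 36.3 and 39.0 RPKM, a ratio of 1.07 with an interval from 0.992 to 1.16. Wdfy4, needed for cross-presentation, had 13.9 and 18.3 RPKM, 1.32-fold higher in the clodronate library (1.23 to 1.40). Cadm1, an adhesion molecule, had 5.86 and 2.58 RPKM and was 2.27-fold higher in the vehicle library (1.79 to 2.94). Ly75 (DEC-205), an uptake receptor, had 0.423 and 0.0716 RPKM, and Snx22 and Gcsam had 0.370 and 0.305 RPKM with vehicle and were listed at 0 with clodronate. Beside these low genes, Irf8 was well above 1 RPKM, as were Id2 (126 and 140 RPKM) and Naaa (83.4 and 88.7 RPKM).

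The 12 genes of the pDC programme beside Siglech were split. Of these, 6 averaged 1 RPKM or more, with a median log2 ratio of 0.92, and 2 were past 3-fold, both higher. Cox6a2, 1 of these 2, passed the filter through the clodronate library alone, and the median was 0.57 among genes above 0 in both libraries and 0.23 with no filter. Irf7, an interferon-induced transcription factor, had 20.1 and 107 RPKM, 5.33-fold higher (4.83 to 5.91), and Cox6a2 had 2.34 RPKM with clodronate and was listed at 0 with vehicle. Bst2, also induced by interferon in many cells, had 45.4 and 111 RPKM, 2.45-fold higher (2.16 to 2.79). Tcf4, the transcription factor that sets the pDC fate, had 26.8 and 37.9 RPKM, 1.42-fold higher in the clodronate library (1.339 to 1.503). Runx2 had 2.95 and 4.89 RPKM, and Tlr9, a sensor of DNA, had 12.7 and 15.0 RPKM, 1.18-fold higher (1.05 to 1.33). Other genes of the list, which the filter left out, were lower with clodronate. Spib, a transcription factor, had 1.12 and 0.275 RPKM, 4.08-fold higher in the vehicle library (1.88 to 10.1). Ccr9, a homing receptor, had 0.458 and 0.129 RPKM, 3.54-fold higher in the vehicle library (1.30 to 9.76). Bcl11a had 1.53 RPKM with vehicle and was listed at 0 with clodronate, and Klk1 was listed at 0 in both.

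Of the 11 genes of the mature dendritic cell programme, which accompanies migration to lymph nodes, 10 averaged 1 RPKM or more and none of these was past 3-fold, and their median log2 ratio was -0.37. Fscn1, an actin-bundling protein, had 5.45 and 2.35 RPKM and was 2.32-fold higher in the vehicle library (1.75 to 3.15). The chemokine Ccl17 had 29.9 and 15.7 RPKM, 1.90-fold higher in the vehicle library (1.37 to 2.65), and Cd83 had 246 and 148 RPKM, 1.66-fold higher (1.59 to 1.72). The migration receptor Ccr7 had 3.36 and 2.31 RPKM, 1.46-fold higher in the vehicle library (1.002 to 2.14). Relb had 27.2 and 30.7 RPKM and was on the other side, 1.13-fold higher in the clodronate library (1.02 to 1.25). Il12b, a subunit of interleukin-12, had 0.0415 and 1.07 RPKM.

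**Figure D5:**
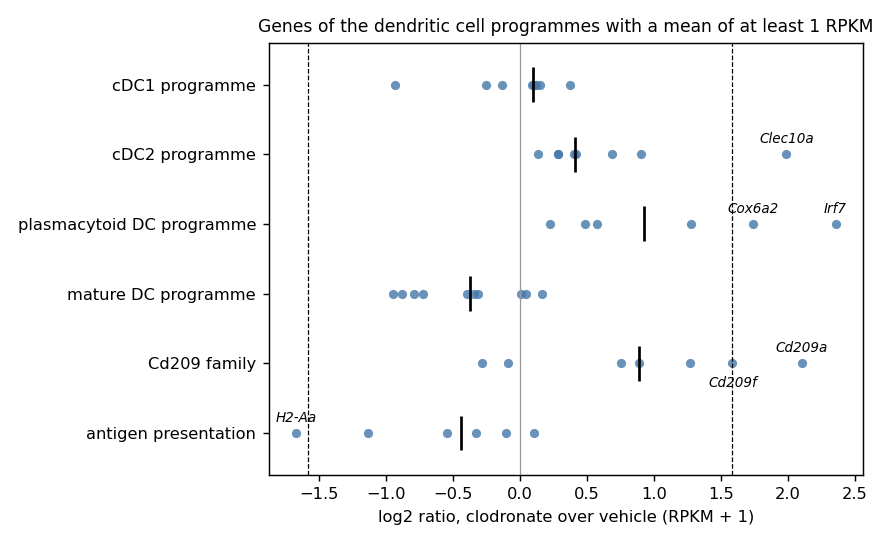
Clodronate over vehicle as a log2 ratio of RPKM + 1 for the genes of 6 lists with a mean of at least 1 RPKM. Each point is a gene, black bars are list medians, dashed lines mark 3-fold and genes past them are named. The medians of the cDC2, pDC and Cd209 lists lie at 0.41, 0.92 (0.23 for pDC with no filter and 0.57 among genes above 0 in both libraries) and 0.88, that of the cDC1 list at 0.09, and those of the mature and antigen presentation lists at -0.37 and -0.44.

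Antigen presentation genes, which dendritic cells share with macrophages, had a median log2 ratio of -0.44 over 6 genes. H2-Aa, a chain of MHC class II, had 3283 and 1027 RPKM, 3.20-fold higher in the vehicle library (3.13 to 3.27), and was the only gene of that list past 3-fold. Ciita, the activator of MHC class II genes, had 10.3 and 7.99 RPKM, and Itgax (CD11c) had 21.2 and 19.6 RPKM. Of 15 ligands and partners of the dendritic cell marker genes, 11 averaged 1 RPKM or more, 0 were past 3-fold on the scale of RPKM + 1, on which genes are counted, and the median log2 ratio was 0.26. Flt3l, the ligand of Flt3, had 7.32 and 10.2 RPKM, 1.39-fold higher in the clodronate library (1.04 to 1.88), and so was more abundant than its receptor in both. Xcl1, the ligand of Xcr1, was listed at 0 in both libraries, as were Csf2 and Siglecg, the receptor for Cd24a. Itgb7, the chain that pairs with Itgae, had 12.4 and 10.8 RPKM, a ratio of 1.15 in favour of the vehicle library with an interval from 0.985 to 1.33. Cdh1, the E-cadherin that Itgae binds, had 6.14 and 6.44 RPKM, and Tyrobp, the adaptor of Siglech, had 2174 and 1644 RPKM. Ada, the adenosine deaminase bound by Dpp4, had 1.68 and 6.25 RPKM and was 3.71-fold higher in the clodronate library on the scale of RPKM (2.52 to 5.70), its log2 ratio of RPKM + 1 being 1.43, while Dpp4 itself was lower there.

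Monocytes, from which dendritic cells with Cd209a can arise, had 6 marker genes with a median log2 ratio of -0.06, 3 of them higher and 3 lower. Ly6c2 had 13.0 and 23.0 RPKM, Plac8 had 45.4 and 91.8 RPKM, and Ccr2 had 48.5 and 37.8 RPKM. The summed level of the list was 158 RPKM with vehicle and 183 RPKM with clodronate. Its part in the difference of Cd209a was not tested.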

How the data were processed

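The authors deposited RPKM values for 23170 loci per library, with the build mm9. The submitters' processing notes name CASAVA 1.8.2, TopHat2 2.0.9, Bowtie 0.12.9, Cufflinks 2.2.1 and Cuffdiff. The paper does not describe these libraries. Lines of the same symbol were summed, and 26 symbols that had become numbers were replaced by accessions. Log2 ratios used a pseudocount of 1, and genes with a mean below 1 RPKM were left out of counts and medians. No test was run, because there was 1 library per condition. Fragments were fitted from loci with 1 fragment and GENCODE M21 transcript lengths matched by RefSeq accession, and the steps were tested on simulated data. The RPKM sum to 601579 (vehicle) and 596143 (clodronate). The genes and the marker and programme lists were chosen with earlier results of these data known. All 10 genes are given with their values, beside genes taken from the lists. Any other gene is marked as such. Of 143 list genes 3 were not found, and 3 were found under a RefSeq synonym. The scripts ran on scipy 1.17.1, pandas 2.3.3 and numpy 2.4.6 under Python 3.11.15. The alternatives were another pseudocount, filter, fold or scaling, a correction for length and GC content, and only genes above 0 in both libraries.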

Additional observations from a re-analysis of the deposited data

How the results depend on the processing

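No paired analysis was possible because only 1 library stands for a condition. The 2 dendritic cell marker genes past 3-fold became 0 for means of 5 RPKM or more, which keeps Cd24a alone, and 1, Cd209a, among genes listed above 0 in both libraries, an alternative chosen after seeing the data. The other settings gave 2, at 2-fold too. A median that moved by over 0.1 is given here. The median log2 ratio of the dendritic cell marker genes kept was 1.07, and it was 1.38 with a pseudocount of 0.1, -0.010 with no filter, -0.60 with means of 5 RPKM or more, 1.21 after correction for length and GC content and 0.027 among genes above 0 in both. Both filters and the restriction to genes above 0 change which genes enter a median. With a pseudocount of 0.1 the Cd209 family had 1.32, with means of 5 RPKM or more 0.59. With no filter the cDC1 programme had -0.047 and the pDC programme 0.23, and among genes above 0 in both the pDC programme had 0.57. After the correction the cDC2 programme had 0.28, the ligands and partners 0.060, the Cd209 family 1.004 and antigen presentation -0.54. Apart from the settings themselves the cause was not tested. Under the alternatives that kept them, Cd209a ran from 2.06 to 2.70, Cd24a from -0.66 to -0.35 and Zbtb46 from -0.01 to 0.05, so Zbtb46 has no stable sign. Batf3 ran from 2.73 to 5.87, which the pseudocount sets. Over all genes, 314 were past 3-fold upward and 255 downward, which became 532 and 480 with a pseudocount of 0.1, 127 and 101 with means of 5 RPKM or more, 177 and 184 among genes above 0 in both, and 763 and 744 at 2-fold.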

Other observations

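Stromal and endothelial genes, which belong to no comparison of dendritic cell genes, differed in both directions. Of the 8 genes of that list, 4 were higher and 4 lower in the clodronate library. Dcn, a proteoglycan of fibroblasts, had 77.3 RPKM with vehicle and 28.4 RPKM with clodronate. It was 2.72-fold higher in the vehicle library with a counting interval from 2.46 to 3.02. Col1a1, at 2.32 and 5.40 RPKM, was 2.32-fold higher in the clodronate library (1.94 to 2.80). Col1a2 (2.01 and 1.94 RPKM) and Kdr (0.650 and 0.831 RPKM) had intervals that included equal values. Cdh5, the cadherin of endothelial junctions, had 0.480 and 3.24 RPKM, 6.76-fold higher in the clodronate library (4.40 to 10.8). Its ratio was near that of Cd209a, at a lower level in both libraries.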
